A study of Bos taurus with 6 samples.

Results

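The transcripts described here encode the proteins of the cytosolic ribosome. They were taken by gene symbol: RPL or RPS followed by a digit, or RPSA, RPLP0, RPLP1, RPLP2 or FAU, leaving out the S6 kinases and pseudogene or like symbols. The rule found 64 genes of 15229 named genes on the array, carried by 111 of its 43794 bovine probes, and each gene was represented by its probe of highest mean raw intensity. Current RefSeq symbols of protein-coding bovine genes that meet the rule number 78, and for 14 of them, among them RPL3, RPL10, RPS27A and RPS4X, the probe annotation used here gave no probe under that symbol.

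The cytosolic ribosome is built from a small subunit, which holds and reads the mRNA, and a large subunit, which joins the amino acids. Each ribosomal protein is present in nearly all cases as a single copy per ribosome, except the acidic P-stalk proteins RPLP1 and RPLP2, which sit on RPLP0 and recruit the translation factors that use GTP. Ribosomal protein mRNAs are among the most abundant mRNAs of a growing cell, start with a terminal oligopyrimidine (TOP) tract, and are controlled in large part at translation through mTORC1, so that their amount and their use can differ.

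Cumulus cells, the somatic cells around the oocyte, came from cumulus-oocyte complexes of slaughterhouse Holstein cows, whose age and number per pool the labels do not give. The complexes were cultured in serum-supplemented medium with recombinant follicle-stimulating hormone (rFSH) at 0.5 µg/mL or with none, and both groups received 1 µg/mL estradiol. RNA of 3 biological replicates, numbered 2, 3 and 4, was amplified by T7 transcription in a pair of rounds. Each replicate was hybridised as rFSH against control on 2 arrays with the dyes Cy3 and Cy5 exchanged, which gave 6 arrays. The culture protocol states 22 to 24 h while the control is labelled 6 h, so the time of the control was not settled, and a difference in time cannot be told apart from that in rFSH. In RNA from whole cumulus, fewer cells of a type and less RNA per cell cannot be told apart.

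All ratios are log2 of rFSH over control, and values after ± are SDs over the 3 replicates. A gene is called higher or lower where limma gave an adjusted p under 0.05, with Benjamini-Hochberg adjustment over 34821 tested probes. The share of bovine probes brighter than the negative controls was 38.2% to 83.3% per channel. Of 18 cumulus and granulosa markers on the array, 17 were tested and AMHR2 was not above the negative controls; TNFAIP6, HAS2 and CYP11A1 were higher and FSHR was lower with rFSH. Their summed raw intensity was 155328 to 184315 in the rFSH channels and 124594 to 164536 in the control channels. Oocyte markers were dim, with 16 probes summing to 2809 to 8603 with rFSH and 2176 to 9405 in control. None of the 15 tested oocyte markers was called in limma, nor passed an unadjusted p under 0.05, but their median ratio was 0.62 in replicate 2, -0.21 in replicate 3 and 0.12 in replicate 4. The part of this difference in oocyte RNA between replicates in the ratios below was not tested. Of the theca and stroma markers 12 were tested and 2 were lower, and of 11 tested blood and endothelium markers none was called in limma, with 2 at an unadjusted p under 0.05.

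The ratios of ribosomal protein transcripts differed with the brightness of their probes: those of very bright probes lay close to 0 and those of dimmer probes spread to both sides. All 64 were brighter than the negative controls in both channels of all 6 arrays, so all entered the test through both groups. RPLP1 and RPLP2, the paired proteins of the P-stalk, were higher with rFSH, RPL30 of the large subunit was lower, and the other 61 were not called. Over all named genes, with 1 probe each, 8.74% were called, 3.87% as higher and 4.87% as lower, against 3 of the 64 members. The 3 calls fell among 29 members with a mean raw intensity below 30000, where 8.82% of the named genes were called. Over 30000, where 35 members lay, 1.81% of all tested probes were called. Whether the share called differs between the members and the named genes was not tested. At an unadjusted p under 0.05 there were 7 members with higher and 8 with lower values, which is 23.4% of them, against 30.9% of the named genes. The median ratio of the members was 0.01, that of the named genes 0.01, and 31 of 64 members lay within 0.1 of 0. Of these 31, 28 had probes with a mean raw intensity over 30000 and 3 were among the 29 members below it. Below 30000 the median size of the ratio, whatever its sign, was 0.38 for the members and 0.19 for the named genes. These sets were not alike in brightness, since 12578 of the 13009 named genes there lay under 10000. Between 10000 and 30000 the median size was 0.27 for 10 members and 0.44 for 431 named genes. Under 10000 it was 0.44 for 19 members and 0.18 for the named genes. That class was not matched in brightness either. Its members had mean raw intensities of 445 to 8844 and passed the negative controls in every channel. The other tested probes needed to do so on only 3 arrays of a channel.

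The median ratio of the members was -0.03 in replicate 2, -0.03 in replicate 3 and 0.10 in replicate 4, while the medians of the named genes lay between 0.00 and 0.02. Named genes with a mean raw intensity over 30000, where 35 of the members lay, had medians of -0.01, -0.03 and 0.09. These 132 named genes include the 35 members, so the likeness is partly built in. Below 30000 the medians were -0.29, 0.00 and 0.05 for the members and 0.01, 0.00 and 0.02 for the named genes. Whether the pattern of the replicate medians is particular to the members was not tested. Across single arrays the median of the members ran from -0.13 to 0.12, with the lowest value on the replicate 2 array that had rFSH in Cy3. Replicate 4 held the highest of the 3 ratios for 42 of 64 members and replicate 2 the lowest for 37, against 33.3% and 33.9% of named genes. Among the 29 members below 30000, replicate 4 held the highest ratio for 13 and replicate 2 the lowest for 21. Correlations of the ratios across the 64 genes were 0.70 between replicates 2 and 3, 0.52 between 2 and 4 and 0.57 between 3 and 4. These are descriptions across genes, which share the same arrays and are not independent.

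**Figure D1:**
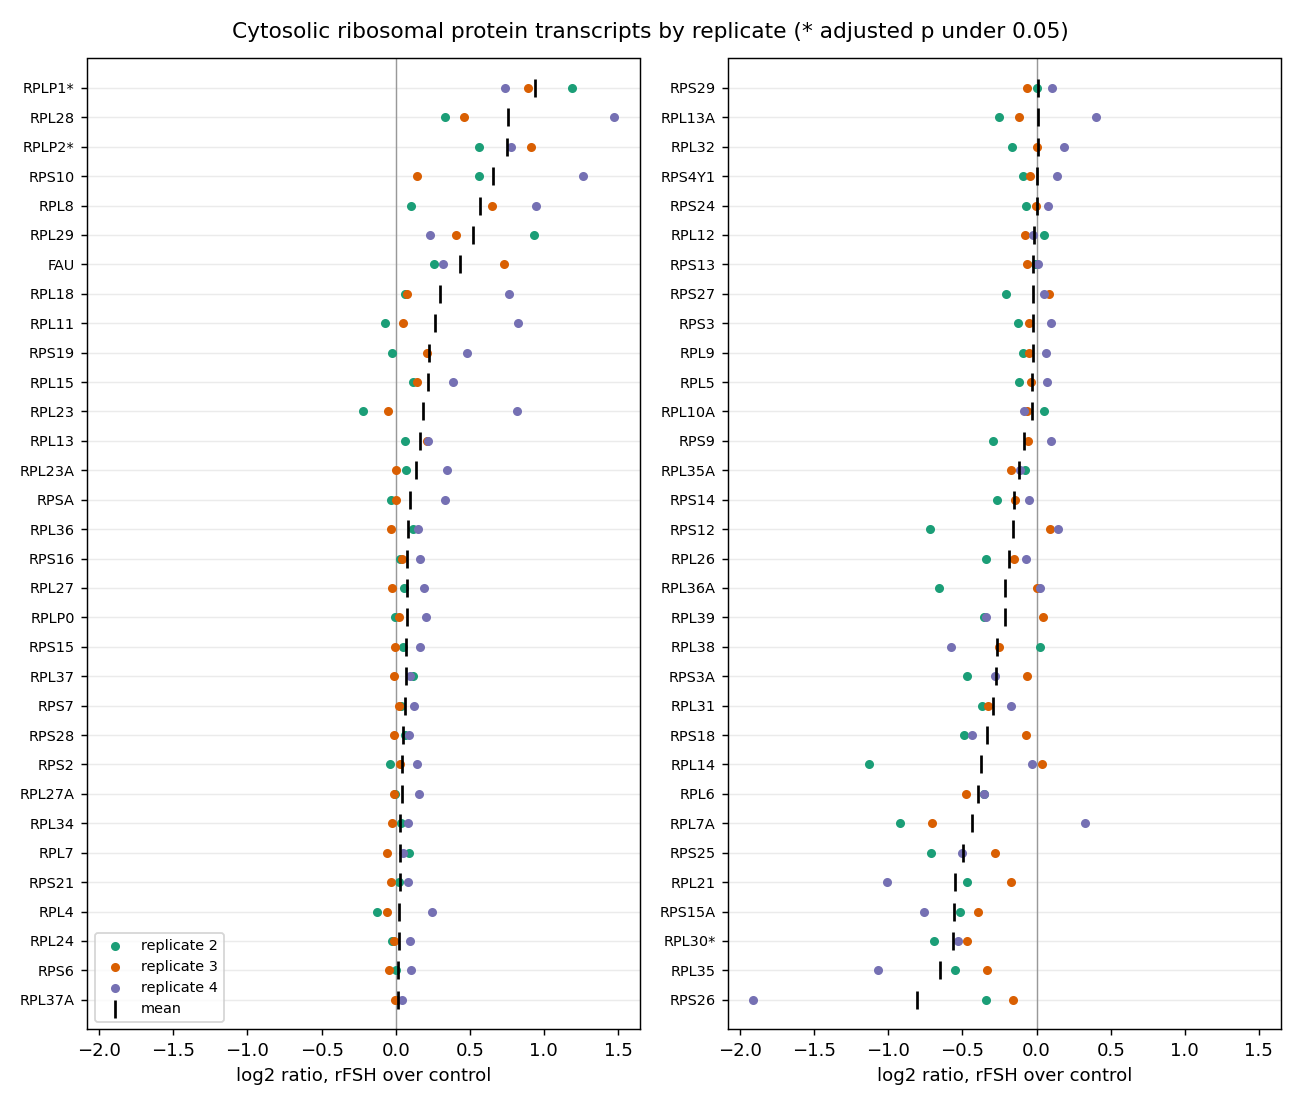
Log2 ratio of rFSH over control for each of the 64 ribosomal protein genes, with a point per replicate and a bar at the mean, sorted from the highest mean to the lowest. RPLP1, at 0.94, stands at the top and RPS26, at -0.80, at the bottom, where 1 replicate lies far from the other 2, and 31 of the 64 genes lie within 0.1 of 0.

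RPLP1 is the P1 protein of the stalk. Its ratio was 1.00 and 1.38 on the arrays of replicate 2, 0.83 and 0.96 on those of replicate 3, and 0.59 and 0.89 on those of replicate 4, with rFSH in Cy5 named before rFSH in Cy3. Raw spot intensity was 20470 to 27166 in the rFSH channels and 8768 to 14903 in the control channels, so the groups did not overlap. The mean ratio was 0.94 ± 0.23 (95% confidence interval 0.62 to 1.26), a 1.92-fold higher level with rFSH (limma, adjusted p = 0.0343). Without replicate 2 or without replicate 3 the adjusted p in limma was 0.140 and 0.101, with ratios of 0.82 and 0.96, while without replicate 4 the call held (0.0440).

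RPLP2, the P2 protein that pairs with P1, had ratios of 0.63 and 0.49 in replicate 2, 0.87 and 0.95 in replicate 3, and 0.67 and 0.89 in replicate 4. On every array the rFSH channel was the brighter, although the raw ranges of 6632 to 15520 with rFSH and 5072 to 8421 in control overlapped between arrays. The mean of 0.75 ± 0.18 (0.47 to 1.03) is a 1.68-fold higher level (limma, adjusted p = 0.0387). Leaving out any replicate ended the call, with adjusted p between 0.0814 and 0.140 in limma, and 2 of 18 alternatives with all replicates ended it too, with adjusted p up to 0.288 where the channels were not paired. RPLP1 and RPLP2 each had a single probe.

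RPLP0, the protein that anchors the stalk to the large subunit, was measured by 12 probes. The brightest gave 0.00 in replicate 2, 0.02 in replicate 3 and 0.20 in replicate 4, a mean of 0.07 ± 0.11 (adjusted p = 0.675 in limma). Its raw intensity was 35382 to 40698 with rFSH and 33004 to 41314 in control. The 12 probes spread from -0.43 to 0.30 and none was called by limma, nor had an unadjusted p under 0.05. The 2 dimmest, at mean raw intensities of 20196 and 11495, gave -0.43 and -0.20. Neither the bright nor the dim RPLP0 probes were called in the direction of RPLP1 and RPLP2, and the difference between the genes was not tested.

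**Figure D2:**
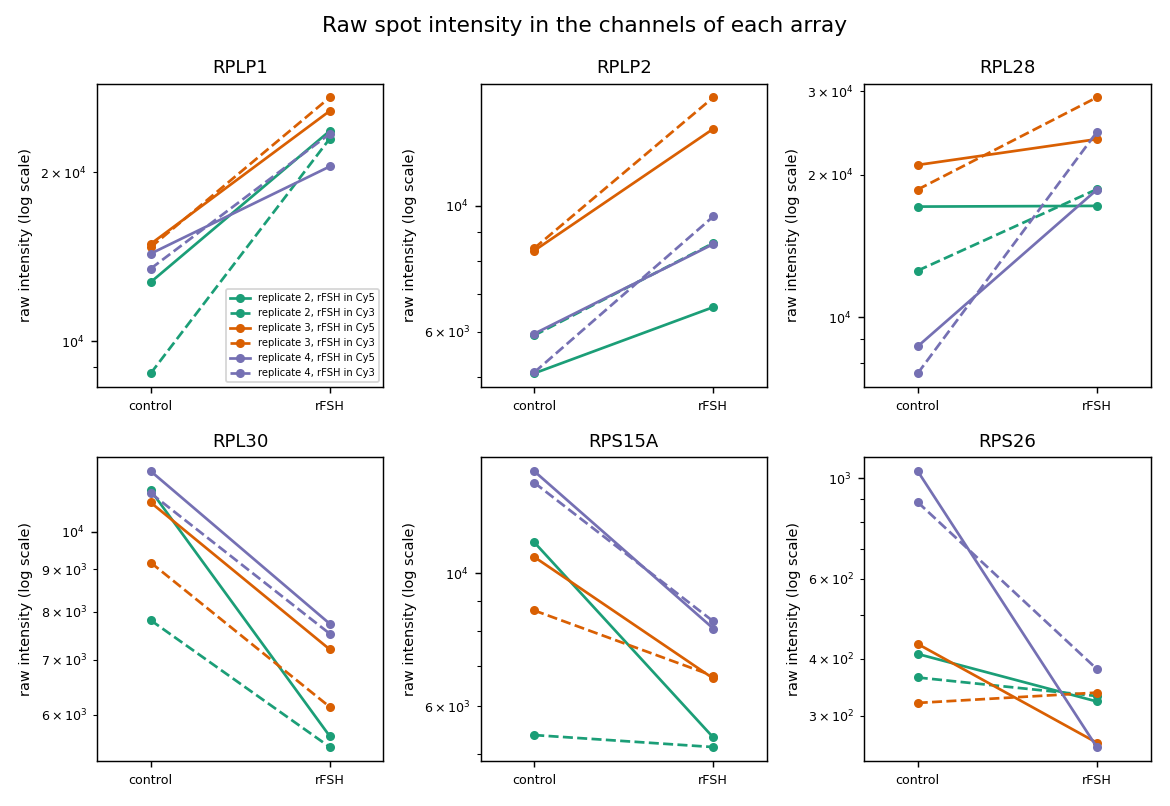
Raw spot intensity on a log scale in the control and rFSH channels of each array for 6 ribosomal protein genes, with a line per array coloured by replicate, solid where rFSH was in Cy5 and dashed where it was in Cy3. All 6 lines rise for RPLP1, RPLP2 and RPL28 and fall for RPL30 and RPS15A, while for RPS26 the lines of replicate 4 fall most and 1 line of replicate 3 rises slightly.

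Among large subunit proteins, RPL30 was the member called lower. RPL30 is an RNA-binding protein near the subunit interface. Its arrays gave -0.81 and -0.58 in replicate 2, -0.40 and -0.53 in replicate 3, and -0.50 and -0.56 in replicate 4. Raw intensities of 5485 to 7735 with rFSH lay below all control values, 7811 to 11839. The mean was -0.56 ± 0.11 (-0.80 to -0.33), a level 1.48-fold higher in control (limma, adjusted p = 0.0454). Its second probe gave -0.79 ± 0.68, lower in all replicates but most in replicate 2, at -1.57, and was not called (adjusted p = 0.183). The call of RPL30 lies close to the threshold: it was lost without any single replicate (adjusted p 0.102 to 0.157) and under 5 of 18 alternatives with all replicates, in which adjusted p reached 0.0988.

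The other large ratios of the large subunit did not pass the test. RPL28 had the second highest ratio of all members, 0.33, 0.46 and 1.48 by replicate, mean 0.76 ± 0.63 (adjusted p = 0.173 in limma). Its 2 further probes gave 0.55 and 0.44, and each was highest in replicate 4 and below 0 in replicate 2. RPL8, which lies at the peptidyl transferase region, gave 0.11, 0.65 and 0.95, mean 0.57 ± 0.43 (adjusted p = 0.158). Both genes were positive on all 6 arrays, but the span between their replicates exceeded the mean. The same sign on all 6 arrays was seen in 17 of 64 members and in 3527 of 13141 named genes. RPL29 stood at 0.52 ± 0.37, positive on 5 arrays (adjusted p = 0.146).

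At the lower end, RPL35, which lies at the exit of the peptide tunnel, gave -0.55, -0.34 and -1.07, mean -0.65 ± 0.38 (adjusted p = 0.103 in limma). RPL21 gave -0.47, -0.18 and -1.01, mean -0.55 ± 0.42 (adjusted p = 0.164), and its other 3 probes lay between -0.29 and -0.10. RPL6 gave -0.35, -0.48 and -0.35, mean -0.39 ± 0.07 (adjusted p = 0.0684), the narrowest replicate spread among members with a ratio below -0.3. RPL35, RPL21 and RPL6 were negative on all 6 arrays, without passing the adjusted threshold. They are among 17 of 64 members with the same sign on all 6 arrays, against 3527 of 13141 named genes. RPL7A differed in sign between replicates, at -0.92, -0.70 and 0.32.

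RPL5 and RPL11, which bind the 5S rRNA and can also bind MDM2, were both not called. RPL5 gave -0.12, -0.04 and 0.07, mean -0.03 ± 0.10 (adjusted p = 0.872 in limma). RPL11 gave -0.07, 0.05 and 0.83, mean 0.27 ± 0.49 (adjusted p = 0.518), so its mean rested on replicate 4, without which it was -0.01. The second RPL11 probe gave 0.00 ± 0.17. RPL13A, known in human cells also from interferon-dependent translational silencing, gave -0.25, -0.12 and 0.40, mean 0.01 ± 0.34 (adjusted p = 0.979). Its mean near 0 thus came from replicates of opposite sign, and its interval runs from -0.41 to 0.43. This probe had a mean raw intensity of 32786. The dimmer RPL13A probe, at 2293, gave -0.20, -0.26 and -0.38, mean -0.28 ± 0.09 (adjusted p = 0.134 in limma), and was not called. Its dye term was called (adjusted p = 0.0265 in limma).

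In the small subunit none of 25 members was called by limma, with 2 higher and 3 lower at an unadjusted p under 0.05. RPS10, which lies at the mRNA entry side, had the highest ratio, 0.56, 0.14 and 1.26, mean 0.66 ± 0.57 (adjusted p = 0.189). FAU, whose product is a fusion of a ubiquitin-like protein and RPS30, gave 0.26, 0.73 and 0.32, mean 0.44 ± 0.26 (adjusted p = 0.128). Both were positive on all 6 arrays.

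RPS26, which contacts the mRNA upstream of the start codon at the exit channel, had the lowest ratio of all members, but it rested on a single replicate. Its values were -0.34 and -0.16 in replicates 2 and 3 and -1.91 in replicate 4, mean -0.80 ± 0.96 (adjusted p = 0.306 in limma). The raw control intensity was 886 and 1036 on the arrays of replicate 4 and 320 to 432 on the others, while the rFSH channels lay between 256 and 380 throughout. The high control signal of replicate 4 set the mean. A second probe gave -0.38 ± 0.59, with -1.05 in replicate 4.

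RPS15A gave -0.52, -0.39 and -0.76, mean -0.56 ± 0.18 (adjusted p = 0.0600 in limma). Its 3 probes gave -0.56, -0.58 and -0.54, with adjusted p between 0.0566 and 0.0600, so they repeated each other closely and none passed. RPS25, a protein that viral internal ribosome entry sites use, stood at -0.50 ± 0.22 with all 6 arrays negative (adjusted p = 0.0834). The small subunit members with the largest negative ratios and close replicates therefore missed the threshold by little, and they are not called lower here.

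RPS6, RPS3, RPSA and RPS4Y1 were read by a brightest probe over a mean raw intensity of 30000, and none was called. RPS6, the substrate of the S6 kinases downstream of mTORC1, gave 0.00, -0.05 and 0.10, mean 0.02 ± 0.08 (interval -0.20 to 0.24). RPS3, which also has a role in DNA repair, gave -0.13, -0.05 and 0.10, mean -0.03 ± 0.11 (interval -0.26 to 0.21). RPSA, also known as the laminin receptor precursor, gave -0.03, 0.00 and 0.33, mean 0.10 ± 0.20 (interval -0.20 to 0.40), and its other 2 probes gave -0.14 and -0.28. RPS4Y1, at 0.00 ± 0.12, carries a symbol that shares an older name with RPS4X, and which of the paralogs its probe binds was not tested.

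By subunit, the 36 large subunit members had a median ratio of 0.01, with 1 lower, the 25 small subunit members one of 0.00, with none called, and the 3 P-stalk members one of 0.75, with 2 higher. The large subunit ranged from -0.65 to 0.76 and the small from -0.80 to 0.66. Replicate medians were -0.05, -0.03 and 0.09 for the large and -0.04, -0.03 and 0.10 for the small subunit. Of these members, 21 large and 13 small had probes with a mean raw intensity over 30000. Named genes in that range, which include these members, had replicate medians of -0.01, -0.03 and 0.09. Whether the pattern is particular to the subunits was not tested. Below 30000 the medians were -0.34, 0.00 and 0.02 for the large and -0.32, -0.06 and 0.00 for the small subunit. The named genes below 30000 had 0.01, 0.00 and 0.02.

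The ratios of most members came from very bright spots. For 35 of the 64, the mean raw intensity over both channels of 6 arrays was over 30000, where 221 of all tested probes lay. Spot means ended at 39276 to 45894 in the channels, and median pixels reached the scanner's limit of 65535. None of these 35 members was called by limma, with 2 at an unadjusted p under 0.05, and 1.81% of all probes in that range were called. The spread of ratios across members was 0.12 (SD) over 30000, 0.48 between 10000 and 30000 and 0.47 below 10000. For all tested probes the same spreads were 0.24, 0.79 and 0.45. The narrow spread of the members thus moved with spot brightness, and all 3 called members had probes below 30000. Near the ceiling a spot cannot show the whole of a difference, so a ratio near 0 there does not show equal levels. What part the scanner's limit had in these ratios was not tested.

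**Figure D3:**
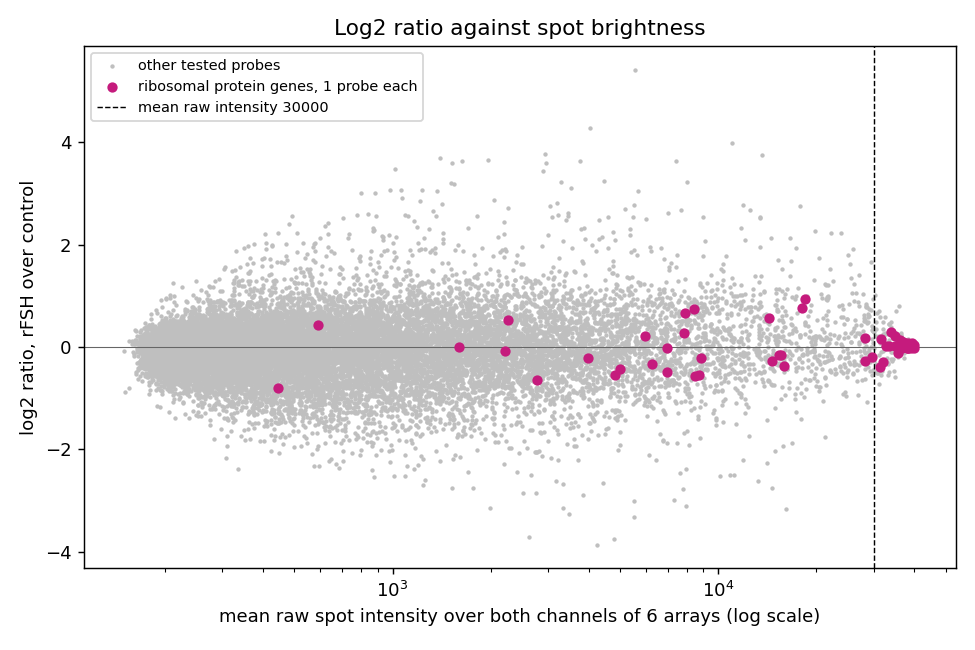
Log2 ratio of rFSH over control against mean raw spot intensity on a log scale, for all tested probes in grey and the 64 ribosomal protein genes in magenta, with a dashed line at 30000. To the right of the line 35 members lie tightly around 0, and to the left 29 members spread between -0.80 and 0.94, within the cloud of the other probes.

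The 29 members with probes below 30000 hold the 2 higher and the 1 lower call, against 8.82% of the 13009 named genes in the same range. Their median ratio was -0.16, with 18 below 0 and 11 above. By replicate the median was -0.29, 0.00 and 0.05, so a median below 0 was seen in replicate 2 alone, which held the lowest ratio for 21 of these 29. Of these members 13 had an unadjusted p under 0.05, 7 above 0 and 6 below, which is 44.8% of them, against 31.0% of the named genes below 30000. The direction of this difference changed with brightness. Under 10000 the shares were 52.6% of 19 members and 30.3% of the named genes, which were not matched in brightness within that class. Between 10000 and 30000 they were 30% of 10 members and 53.4% of the named genes.

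Genes with several probes allow the same transcript to be read at different brightness. Of 26 such members, 16 had probes of 1 sign and 10 had probes of both signs. In 10 members the brightest probe lay over 30000 and another below it, and in all 10 the dimmest probe had a ratio further from 0 than the brightest. In RPL13A, RPL15, RPLP0 and RPSA, however, these probes were of opposite sign. In RPL13 (0.16 and 0.20) and RPS7 (0.06 and 0.09) they hardly differed. No such count is given here for genes other than the members. RPL12 gave -0.01 at its bright probe and -0.38 ± 0.04 at its dimmer (adjusted p = 0.0666 in limma), RPL9 -0.03 and -0.37, and RPL7 0.03 and 0.54. The dimmer probes had wider replicate spreads in RPL9 and RPL7, 0.50 and 0.71, and a narrow spread in RPL12.

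RPL15, which lies in the core of the large subunit, was the member whose probes disagreed most. Its brightest probe gave 0.12, 0.15 and 0.39, mean 0.22 ± 0.15 (adjusted p = 0.261 in limma). A second bright probe gave -0.18, -0.40 and -0.23, mean -0.27 ± 0.11 (adjusted p = 0.155). The third, dim at a mean raw intensity of 443, gave -0.85, -0.77 and -1.28, mean -0.97 ± 0.28, and was called lower (adjusted p = 0.0386). The 3 probes therefore differ in sign, and no direction is given for RPL15. RPL18 was read alike by its 4 probes, at 0.30 to 0.51, highest in replicate 4 at each. Ribosomal protein genes have many processed pseudogenes and some close paralogs, and binding of their transcripts by these probes was not tested. Over all 111 member probes 2 were called higher and 2 lower, against 6.34% of all tested probes called, 2.97% as higher and 3.37% as lower.

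**Figure D4:**
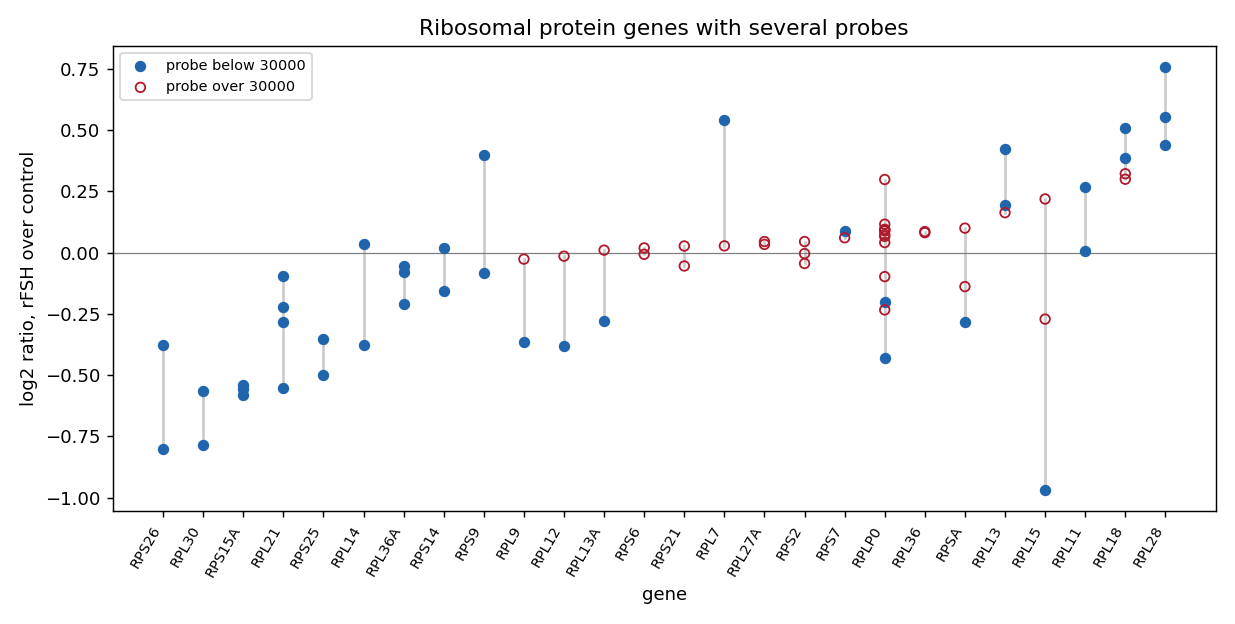
Log2 ratio of rFSH over control for every probe of the 26 ribosomal protein genes with several probes, filled below and open over a mean raw intensity of 30000, joined by a line within each gene. Open points gather near 0, the 3 RPS15A probes coincide near -0.56, and the RPL15 probes run from 0.22 to -0.97.

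Dye orientation was tested in the same arrays. A dye term in limma over the 6 arrays, with replicates as blocks, was called for none of the 64, with 6 at an unadjusted p under 0.05, against 10.2% called over all named genes. The lowest adjusted p of the dye term in limma was 0.0854, for RPL29, at the probes that represent the genes. Among their dimmer probes the dye term was called for 1 probe each of RPL13A (adjusted p = 0.0265), RPS14 (0.0405) and RPL21 (0.0475).

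Genes that make, use or control the ribosome were read beside it. The counts called in these lists stand against 3.87% of all named genes called higher and 4.87% called lower. Of 37 ribosome biogenesis factors, TSR1, a small subunit maturation factor, was higher at 0.48 ± 0.03 (adjusted p = 0.0463 in limma) and SBDS, which releases EIF6 from the large subunit, was lower at -1.02 ± 0.38 (adjusted p = 0.0497), with its other 2 probes not called and 1 of opposite sign, up to 0.14. The list's median was 0.26, and its replicate medians were -0.03, 0.27 and 0.56. Nucleolin NCL (0.26) and nucleophosmin NPM1 (-0.47), abundant nucleolar proteins, were not called. Of 13 RNA polymerase I and rRNA transcription genes none was called by limma, with 3 at an unadjusted p under 0.05. MYC, a regulator of ribosome production, gave -0.16, -1.97 and -0.64, mean -0.92 ± 0.94 (adjusted p = 0.237).

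Among 27 initiation factors 1 was higher and 4 were lower, against 3.87% and 4.87% of all named genes. EIF4E, the cap-binding protein, had the largest difference, -2.42, -2.07 and -2.15 by replicate, mean -2.21 ± 0.19, a level 4.64-fold higher in control (limma, adjusted p = 0.0138). Of its 3 probes 2 were called, and they ran from -2.21 to -0.87. The helicase EIF4A2 was lower at -1.16 ± 0.41, and the EIF3 subunits EIF3M and EIF3H at -0.74 ± 0.09 and -0.57 ± 0.10. EIF5A, the hypusine-bearing factor, was higher at 1.15 ± 0.31 (adjusted p = 0.0343), while its other probe gave 0.15 and was not called. The median of the list was 0.13. None of 11 elongation and termination genes was called by limma, with 1 at an unadjusted p under 0.05. EEF1A1 (-0.09) and TPT1 (-0.01), whose mRNAs also carry TOP tracts, had bright probes over 30000, and the dimmer probe of EEF1A1 was called lower at -0.94. EEF2 stood at 0.18 ± 0.23.

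Of 21 tested genes of mTORC1 and TOP control, TIA1, an RNA-binding protein that represses TOP mRNAs, was lower at -1.20 ± 0.25 (adjusted p = 0.0284 in limma), with its other probe at -0.03 and not called. PDCD4, an inhibitor of EIF4A, was lower at -0.98 ± 0.35 (adjusted p = 0.0480). MTOR itself gave -0.54, -0.92 and -0.46, mean -0.64 ± 0.24 (adjusted p = 0.0615), RPS6KB1, the S6 kinase, 0.57 ± 0.32, LARP1, which binds TOP mRNAs, -0.38 ± 0.37, and EIF4EBP1, the EIF4E inhibitor, 0.16 ± 0.28. None of these 4 was called. In the list of ribosome quality control genes, 1 of 10 was lower, the amino acid sensing kinase EIF2AK4 at -0.78 ± 0.20 (adjusted p = 0.0403). RACK1, a scaffold on the small subunit that is not part of the symbol rule, gave -0.70, -0.55 and -0.39, mean -0.55 ± 0.16 (adjusted p = 0.0547).

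The mitochondrial ribosome, which translates the mitochondrial genome with its own set of proteins, had 77 tested genes, of which 1 was higher and 5 were lower. Of all named genes 8.74% were called in either direction. MRPS2 was higher at 0.91 ± 0.13. MRPS21 (-0.98 ± 0.16), MRPS14 (-0.78), MRPL10 (-0.77), MRPL3 (-0.73) and MRPL47 (-0.54) were lower, with adjusted p from limma between 0.0281 and 0.0425. The median over the 77 was -0.16, with 52 below 0, and replicate medians of -0.22, 0.03 and -0.24. None of the 5 ribosomal protein like genes left out by the symbol rule was called in limma, with 2 at an unadjusted p under 0.05, and they ran from RPL22L1 at -0.44 to RPL7L1 at 0.52. Whether the cytosolic members and any of these lists differ from each other was not tested.

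**Figure D5:**
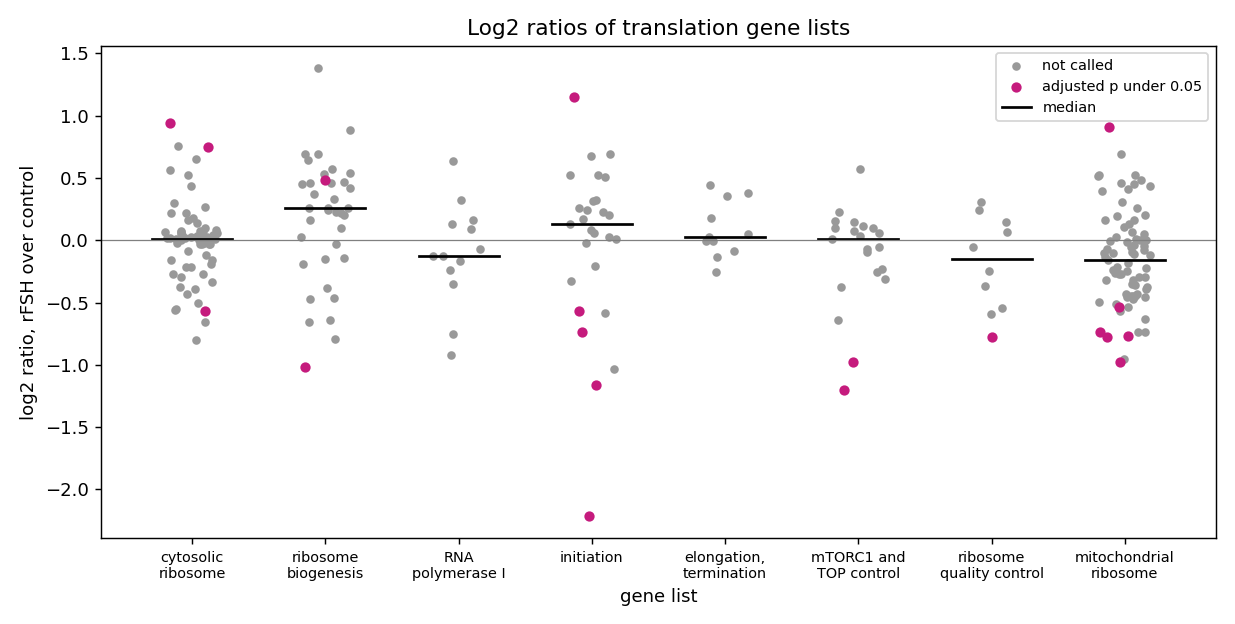
Log2 ratio of rFSH over control for the cytosolic ribosomal protein genes and 7 related gene lists, with a point per gene, magenta where called, and a bar at each list's median. The cytosolic ribosomal points have a median of 0.01, the biogenesis median lies at 0.26 and the mitochondrial ribosome median at -0.16, and EIF4E is the lowest point at -2.21.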

How the data were processed

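Per the file headers, the deposited scanner files hold linear spot and background intensity at both wavelengths, not normalized. Normalized log2 values were deposited by the authors in a pair of identical tables (largest difference 0). They correlated with log2 Cy5 over Cy3 of the scanner values at r 0.976 to 0.992 per array and had column medians of -0.0202 to 0.00122. How they were normalized is not stated in the sources used here.

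In R 4.3.3 with limma 3.58.1, normexp (offset 50) was applied to mean pixels and loess (span 0.3) within arrays. Control spots and 18 to 64 ignored spots per array were left out. Tested probes were above the mean plus 2 SD of 153 negative controls on at least 3 arrays of a channel. Ratios were turned by the dye labels, arrays of a replicate averaged, and 3 values per probe tested with lmFit and eBayes. Each ratio compares channels of the same replicate number, which pairs the samples.

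Symbols came from the platform annotation: 21790 probes had 1 symbol and 22004 had none. No genome build was named, so no coordinates are given. Members and lists were chosen with earlier results of these data known. Named were called members, the 5 highest and 5 lowest, RPSA, RPLP0, RPLP1, RPLP2, FAU, RPS6, RPL5, RPL11, RPS3 and RPL13A, members whose probes differ in sign and by over 1, up to 4 called genes per related list, and 11 measured genes around translation. The other genes named, RPL29, RPL6, RPL7A, RPS25, RPS4Y1, RPL12, RPL9, RPL7, RPL18, RPL14, RPL23A, RPL22L1, RPL7L1, EIF3H, MRPL3, MRPL47 and the cell type markers, and the brightness limits of 10000 and 30000, were chosen after the values were seen. Tested on simulated data over 34821 probes, 0, 14, 34 and 40 of 50 probes changed by 0.5, 1, 2 and 3 were recovered for rFSH over control, with 4 false calls. The simulation changed only these 50 probes per size, far fewer than the 2208 called in the data. Adjustment was therefore stricter there, and its recovery does not measure that of the test on the data. Alternatives covered background, normalization, filter, pixels, bright spots, arrays, replicates, threshold and probe per gene.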

Additional observations from a re-analysis of the deposited data

Results flagged for a closer look

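In 3 of 64 members, 1 of the 6 arrays stood apart from the other 5 by more than Dixon's limit. For 6 independent values that limit would mark about 1 in 20, or 3.2 of 64. The arrays are dye-swapped pairs of 3 replicates (consensus correlation 0.389), so that rate need not hold here. RPL14, a large subunit protein, had a ratio of -1.96 where replicate 2 had rFSH in Cy3, while the other 5 arrays lay between -0.33 and 0.27. RPL15 had 0.54 where replicate 4 had rFSH in Cy5, against 0.09 to 0.24 on the others. RPL23A, which lies at the exit of the peptide tunnel, had 0.57 on that same array, against -0.10 to 0.12.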

How the results depend on the processing

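All members were above the negative controls. The 3 replicates limit every ratio, and 35 of 64 members had probes over 30000. Among these, spots with a median pixel of 60000 or more ran from 0 in RPL6 to 9 in RPS13. RPLP1 kept its call under 18 of 18 alternatives with all replicates, RPLP2 under 16 and RPL30 under 13. The calls were 2 higher and 1 lower. Leaving out each replicate in turn gave 0 to 1 higher and 0 lower members, and over all probes 0 to 510 higher and 0 to 675 lower; in limma 6874, 7399 and 7035 probes then passed an unadjusted p of 0.05 without replicates 2, 3 and 4. Related lists then had 0 to 3 higher and 0 to 5 lower genes, against 3 and 13. With 6 arrays, a dye term and the replicate as a random replicate block, 6 members were higher and 6 lower, related genes 21 and 28, and all probes 2674 and 3381. Unpaired channels with no replicate block gave members 1 and 0, related genes 0 and 6, and probes 472 and 549, with 6402 at an unadjusted p under 0.05. No background correction gave members 1 and 0, 6 lower related genes and probes 570 and 482. Plain subtraction gave 714 lower probes. An offset of 0 gave 0 lower members and 1863 lower probes. Median centring gave 24 lower related genes and 1848 lower probes, and 32 members with a dye effect against 0. The authors' values, arrays with rFSH in Cy5 alone, and omitting 1 array (replicate 2, rFSH in Cy3) each gave 2 lower members; the last gave 6 higher related genes, and Cy5 alone 7, with probes 1565 and 1833. Arrays with rFSH in Cy3 alone gave 9 higher related genes and 1581 higher probes. A threshold of 0.1 gave 4 lower members, related genes 20 and 27, and probes 2330 and 2770. An intensity trend in eBayes and the mean over a gene's probes each gave 0 lower members. A loess span of 0.7 gave 5 higher related genes, median pixels 7, and detection on every array 8 with 2010 lower probes. Median pixels moved the large subunit median to -0.073. Leaving out spots over 30000 kept 28 members and moved the medians to -0.13 for all, -0.15 for the large and -0.16 for the small subunit; leaving out spots with a median pixel of 60000 or more kept 46 and moved the small subunit to -0.16. These last 2 and the omitted array were chosen after seeing the data, the 2 in place of a limit on saturated pixels, whose share the files do not give. The dye effect without a replicate could not be fitted. Signs near 0 turned in members that were not called. RPS6 stood at -0.0030 with an offset of 0, -0.027 with median centring, -0.14 with median pixels and -0.020 with the authors' values, and RPL13A at -0.0098, -0.043, -0.11 and -0.033 in the same order and -0.0037 with Cy3 alone. RPL5 stood at 0.0049 with a span of 0.7, 0.039 with Cy5 alone and 0.0024 without the omitted array, and RPS3 at 0.0087, 0.025 and 0.017. RPSA was -0.036 and RPLP0 -0.018 with Cy3 alone. Leaving out each replicate in turn gave -0.016 to 0.17 for RPSA, -0.022 to 0.052 for RPS6, -0.080 to 0.016 for RPL5, -0.013 to 0.44 for RPL11, -0.089 to 0.024 for RPS3 and -0.18 to 0.14 for RPL13A. The cause of these changes was not tested.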
